A study of Homo sapiens with 9 samples.

Results

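The genes described here are the small nuclear RNA genes of the human autosomes together with the SNAR genes. They were taken from the RefSeq gene table of assembly GRCh38.p14 as all genes with the biotype snRNA, or with a symbol that starts with SNAR-, RNU or RNVU1 and does not end in P, on chromosomes 1 to 22. The rule found 162 genes. Of these, 5 genes known by LOC numbers lie on scaffolds whose coordinates are not those of the peak lists, which left 157 of the 56080 RefSeq genes placed on these chromosomes. By symbol, 28 were SNAR genes, 29 U1 genes (4 RNU1 and 25 RNVU1), 3 U2, 2 U4, 5 U5, 6 U6, 4 minor spliceosome genes (RNU11, RNU12, RNU4ATAC and RNU6ATAC), 1 U7 (RNU7-1), 1 7SK (RN7SK) and 2 RNU105 genes. The remaining 76 carry only a LOC number, and the table gives no family for them. Of the 157 genes, 11 entered by symbol with a biotype other than snRNA. RNU6V, RNVU1-2, RNVU1-21, RNVU1-22, RNVU1-23, RNVU1-24, RNVU1-32, RNVU1-33 and RNVU1-34 are annotated as pseudogenes, and RNU105B and RNU105C as snoRNA genes. They are counted in the families above. The genes are short, with a median length of 121 bases and a range from 60 to 336 bases. This set was chosen by the KAS peaks already known to lie within 1 kb of its genes, so the counts and values below are a description and carry no test.

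Spliceosomal small nuclear RNAs pair with pre-mRNA and with each other inside the spliceosome. U1 recognises the start of an intron, U2 its branch point, and U4, U5 and U6 join as a unit that is rearranged before catalysis. U11, U12, U4atac and U6atac take the matching roles for a rare class of introns. Most of these genes are transcribed by RNA polymerase II and end with the help of the Integrator complex, whereas U6, U6atac and 7SK are transcribed by RNA polymerase III. 7SK holds the elongation factor P-TEFb in an inactive complex, and U7 directs the cutting of histone mRNA ends. SNAR genes encode snaR RNAs, short primate RNAs made by RNA polymerase III, and most of them sit in tandem repeats on chromosome 19. Copies of U1, of U2 and of the SNAR arrays are alike in sequence, so a short read can match several of them. The handling of reads that match several places is not recorded in the labels or files, so the copy named beside a peak of an array is uncertain.

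The members themselves were not matched by gene ID in the RefSeq promoter sequences (0 matches), but SNAR-G1 and SNAR-G2 lie inside the promoter window of a neighbouring gene, which gives their sequence on the strand of that neighbour (GRCh38.p14). They are shown because they are a SNAR pair outside the arrays, and they are the contrast to the array copies below. SNAR-G1 is on chromosome 19 at 49037020 to 49037147, upstream of CGB1 on the minus strand, and the window holds 126 of its 128 bases. SNAR-G2 is at 49031669 to 49031787, upstream of CGB2 on the plus strand, and the window holds all 119 bases. CGB1 and CGB2 belong to the chorionic gonadotropin beta genes. Capitals mark bases that differ between both copies or have no partner in their alignment.
SNAR-G1: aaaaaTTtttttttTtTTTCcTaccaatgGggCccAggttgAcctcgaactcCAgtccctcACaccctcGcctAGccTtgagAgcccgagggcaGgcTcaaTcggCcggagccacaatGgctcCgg
SNAR-G2: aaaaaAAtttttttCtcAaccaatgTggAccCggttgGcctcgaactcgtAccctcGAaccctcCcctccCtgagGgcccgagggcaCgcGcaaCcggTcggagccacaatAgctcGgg
In that alignment 99 of 118 paired bases were the same (83.9%).

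The libraries come from HL-60, a promyelocytic leukaemia cell line, used as dHL60 (differentiated, with no agent named) and treated with 500 nM phorbol myristate acetate (PMA) for 4 h to induce neutrophil extracellular traps (NETs). In 4 thrombin pulldown libraries, 1 µM biotinylated alpha thrombin was added for 1 h, NET DNA was crosslinked, sonicated and captured on streptavidin beads, and the bound DNA was sequenced. In 1 KAS library, 5 mM N3-kethoxal was given to induced cells for 10 min, with no thrombin named, and NET DNA was then isolated; this reagent reacts with unpaired guanines, so captured DNA marks single-stranded stretches. The 4 thrombin input libraries were not analysed here. All groups share the cell line and the PMA induction, and no untreated cells or second cell line were among them. DNA libraries carry no expression, so the cell type could not be checked by markers. Each library is represented by its deposited peak list, with 34247 peaks in the KAS list and 886, 570, 790 and 882 in pulldown replicates 1 to 4 (mean 782 ± 148, SD, n = 4). Read depth is unknown. Whether the pulldown replicates were separate cultures is not in the labels, so their spread may be technical, and the KAS library has no replicate. Gene ends and peaks are on GRCh38 throughout, and the gene table gives no strand, so "before" and "after" below mean lower and higher coordinates.

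No KAS peak touched a small nuclear RNA or SNAR gene itself, but 25 of 157 genes had a KAS peak within 1 kb (15.9%, exact 95% interval 10.6 to 22.6). SNAR genes made up 16 of the 25, LOC-numbered genes 7 and U5 genes 2. The U1, U2, U4, U6, minor, U7, 7SK and RNU105 genes had none. By biotype, the count was 25 of 146 snRNA genes (17.1%) and 0 of the 11 pseudogenes and snoRNA genes. Within the same distance, 20.6% of all RefSeq genes had a KAS peak, but most of those genes are far longer. Among all genes of at most 300 bases the share was 4.47%, and among the 7778 of these that are not members it was 4.24%; it was 2.28% for snoRNA genes, 3.51% for miRNA genes and 7.29% for tRNA genes.

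The peaks lay beside the genes on either side. The 25 genes formed 29 gene and peak pairs with 28 distinct KAS peaks, 17 pairs with the peak before the gene and 12 with the peak after it. The gap between gene and peak ran from 28 bases at SNAR-E to 999 bases at SNAR-B1, with a median of 495. A KAS peak on the gene itself was found in 0.347% of the short genes that are not members and 0.340% of all short genes, so 0 of 157 is not far from what short genes gave. The threshold of 1 kb divided like from like: RNU5A-1 (989 bases), SNAR-C1 (987), SNAR-A3 (967), SNAR-C3 (950) and SNAR-A6 (930) were just inside it, and SNAR-A8 (1041), LOC124904141 (1046), SNAR-A13 (1051) and SNAR-B2 (1058) were just outside.

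**Figure D1:**
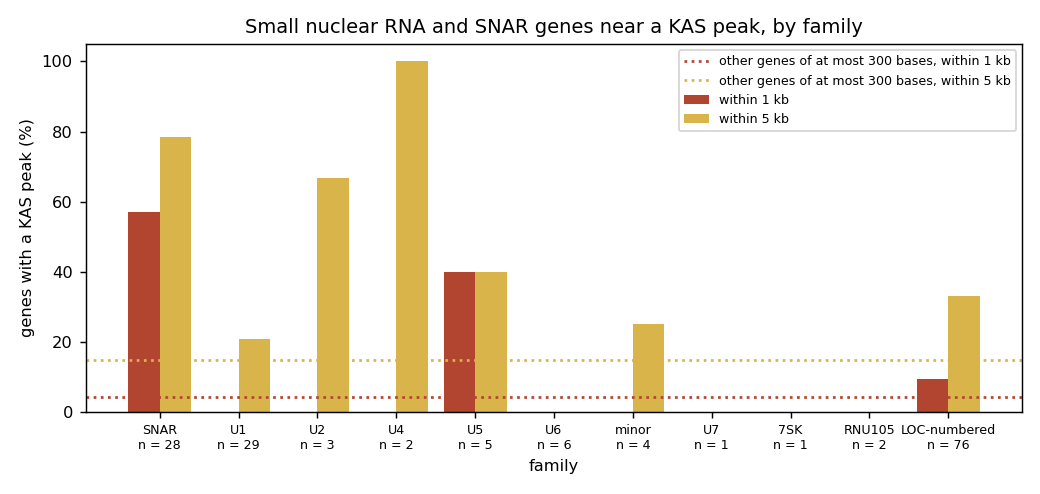
Percent of genes of each family (x axis, with the number of genes) that had a KAS peak within 1 kb (red bars) or 5 kb (yellow bars); dotted lines give the same shares for other genes of at most 300 bases. SNAR reached 57.1% within 1 kb and 78.6% within 5 kb, while U1 had 0% and 20.7%.

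SNAR genes stood nearest to KAS peaks. A KAS peak lay within 1 kb of 16 of 28 SNAR genes (57.1%, exact 95% interval 37.2 to 75.5), against 7.24% of the 290 other chromosome 19 genes of at most 300 bases and 34.0% of all chromosome 19 genes. Nearly all of these were in a pair of tandem arrays on the long arm of chromosome 19. The first array runs from SNAR-A12 to SNAR-C1 at 47907678 to 47955801 and holds 10 copies of the A and C types, with neighbouring starts 5039 to 5386 bases apart. The second runs from SNAR-A4 to SNAR-D at 50092489 to 50140320 and holds 12 copies of the A, B and D types, of which 4 neighbours are under 4 kb apart while the other 7 are spaced as in the first array.

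In the first array 9 of 10 copies had a KAS peak within 1 kb. The fold enrichment, the authors' ratio of reads at the peak over the caller's background, was 6.55 beside SNAR-C5, 6.06 beside SNAR-A1, 6.05 beside SNAR-A2 and 5.69 beside SNAR-A3. It was 5.16 beside SNAR-C2 and 5.01 beside SNAR-C3. The lowest values belonged to SNAR-C1 (3.85), SNAR-C4 (3.69) and SNAR-A12 (2.83), so both A and C types were found among high and low folds. The copy left out was SNAR-A13, whose nearest peak, with a fold of 3.27, was 1051 bases away.

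In the second array 6 of 12 copies had a KAS peak within 1 kb. SNAR-B1 had peaks on both sides, with folds of 4.12 before and 6.02 after the gene, and SNAR-A11 likewise, with 5.86 before and 4.61 after. SNAR-A9 (5.81), SNAR-A6 (5.73), SNAR-A14 (5.14) and SNAR-A10 (4.51) had a peak on the side after the gene. A further peak lay 1053 bases before SNAR-A9, just outside 1 kb, with a fold of 7.11, the highest of this array. Among the copies without a peak at this distance, SNAR-A8 and SNAR-B2 had a peak 1041 and 1058 bases away, with a fold of 6.80 for that of SNAR-A8. SNAR-A7, SNAR-D, SNAR-A5 and SNAR-A4 were farther off, at 1807, 2142, 2237 and 5842 bases. With the distance set to 1.1 kb, 18 of the 22 array copies were counted in place of 15.

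The peaks recurred at like places of the repeat, and the place 400 to 700 bases from the gene was mirrored between the arrays. In the first array 6 copies (SNAR-A12, SNAR-C5, SNAR-A1, SNAR-C2, SNAR-A2 and SNAR-C4) had a summit between -640 and -472 bases from the gene start, and no summit lay 400 to 700 bases after a gene. In the second array the reverse was found: 5 copies (SNAR-A14, SNAR-A9, SNAR-A10, SNAR-A11 and SNAR-B1) had a summit 546 to 686 bases after the gene end, and none had 1 at 400 to 700 bases before the start. A further place, 1000 to 1300 bases from the gene, held 5 summits before and 1 after the gene in the second array, and 2 before and 2 after it in the first. These distance windows were set after the positions were seen. Gene strand is not in the table, so whether the mirrored places are the same side of the transcribed unit was not tested.

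**Figure D2:**
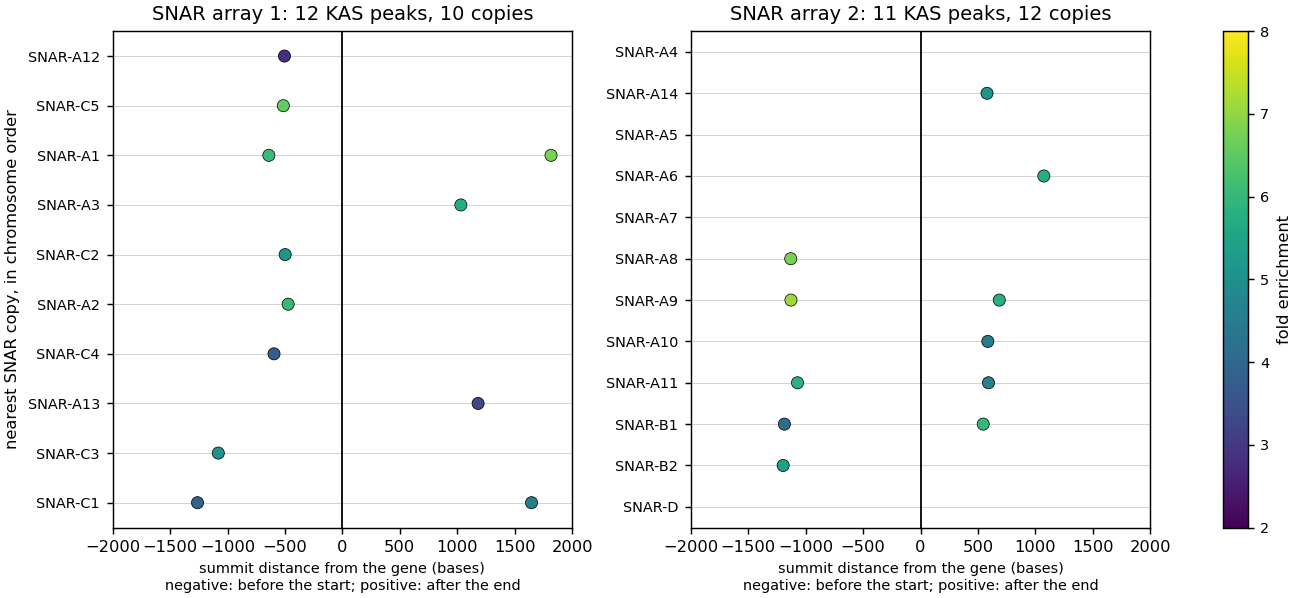
Position of each KAS summit of the SNAR arrays relative to the nearest gene copy (x axis, bases; negative before the gene start, positive after its end), with copies in chromosome order on the y axis and fold enrichment as colour. In the left panel 6 of 12 summits lie at -640 to -472 bases, and in the right panel 5 of 11 lie at 546 to 686 bases and 5 at -1196 to -1071 bases.

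KAS peaks were dense along both arrays. The first array and its 1 kb margins held 11 KAS peaks, or 21.9 per 100 kb, while the 100 kb before it and the 100 kb after it held 7 each. The second held 11, or 22.1 per 100 kb, with 4 before and 3 after. The average over chromosome 19 was 4.04 per 100 kb. None of the 17 distinct peaks within 1 kb of an array copy overlapped an annotated gene.

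**Figure D3:**
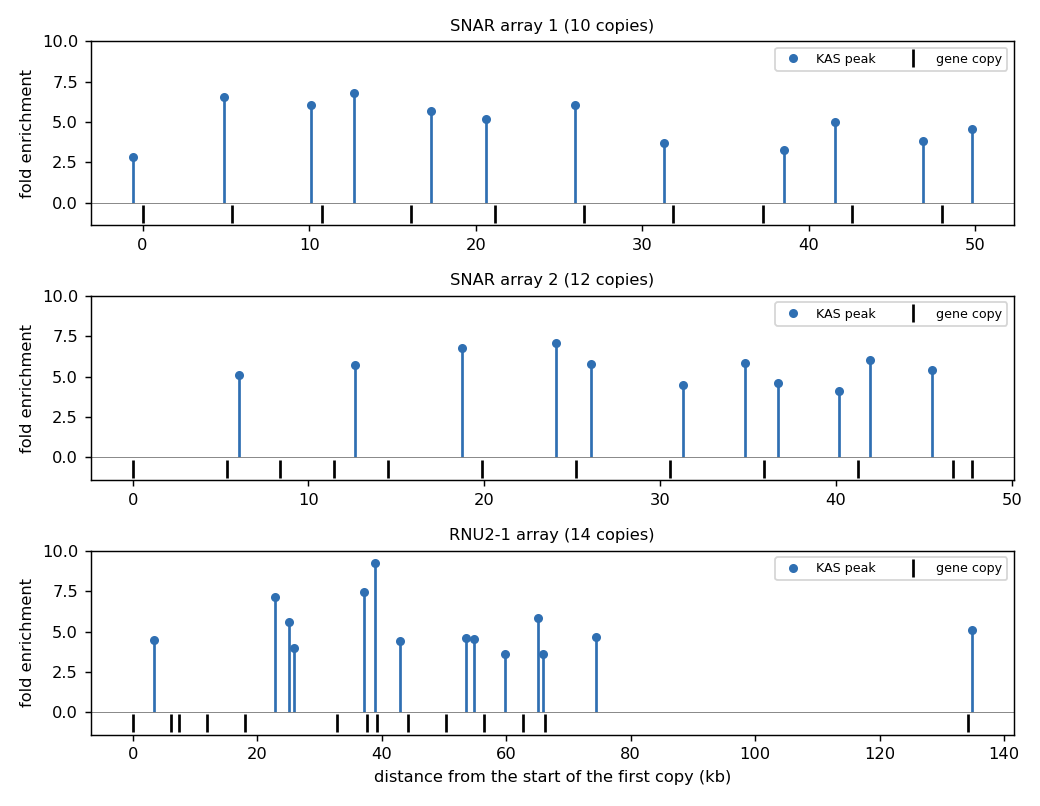
KAS peaks along the SNAR arrays and the RNU2-1 array: distance from the start of the first copy (x axis, kb) against fold enrichment (y axis), with gene copies as black ticks. Each SNAR array holds 11 peaks when margins of 1 kb are counted, and in the RNU2-1 array, where the fold reached 9.24, 12 of 14 peaks lie before the gap that precedes the last copy.

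The 6 SNAR genes outside the arrays were mostly far from KAS peaks. SNAR-E, a lone copy on chromosome 19 at 46830585 to 46830704, was the exception and had the closest peak of all members, 28 bases before the gene, with a fold of 4.17 and a pileup of 9 reads. SNAR-G2 and SNAR-G1, whose sequences are given above, were 18539 and 23890 bases from their nearest peak, with a fold of 3.78. SNAR-F, also on chromosome 19, was 21295 bases away. SNAR-H on chromosome 2 and SNAR-I on chromosome 3, the only SNAR genes outside chromosome 19, were 5233 and 129532 bases away.

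The array around RNU2-1, on chromosome 17 at 43233790 to 43368087, was the other place with repeated KAS peaks. It holds RNU2-1, the standard U2 gene, and 13 LOC-numbered small nuclear RNA genes of 189 to 192 bases, close to the 188 bases of RNU2-1. A KAS peak lay within 1 kb of 4 of these 14 genes, all LOC-numbered, and within 5 kb of 13. Within 5 kb, 14.8% of other genes of at most 300 bases had a peak. The copies start a median of 6131 bases apart, so their 5 kb margins overlap and 1 peak can count for several copies. On chromosome 17, 5.36% of the 373 other genes of at most 300 bases had a peak within 1 kb. The highest folds were 9.24, at a peak 196 bases before LOC124904146, and 7.43, at a peak 220 bases before LOC124904140; the first of these peaks also lay 939 bases after LOC124904140. LOC124904144 had peaks with folds of 3.60 and 5.82 at 190 and 969 bases before it, and LOC124904147 had a peak with a fold of 5.10 at 362 bases after it. RNU2-1 itself was 3219 bases from its nearest peak, which had a fold of 4.48.

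The RNU2-1 array and its 1 kb margins held 14 KAS peaks, or 10.3 per 100 kb. The 100 kb on either side held 5 and 6, and the average over chromosome 17 was 1.88 per 100 kb. Its last copy, LOC124904147, starts 67858 bases after the one before it. Without that copy the array spans 66.4 kb and held, with its 1 kb margins, 12 KAS peaks, or 17.5 per 100 kb. LOC124904140, LOC124904146 and LOC124904144 each had a summit at a like distance before the gene, at -406, -339 and -320 bases from the start. Over the whole array 6 of 14 summits were within 1500 bases of a copy. In the SNAR arrays, counted with margins of 2 kb, it was 10 of 12 and 11 of 11. The median distance between starts was 6131 bases in the RNU2-1 array, against 5373 and 5337 in the SNAR arrays. Whether spacing bears on these counts was not tested. The other U2 genes were RNU2-2, which lies in WDR74 on chromosome 11 and was 3318 bases from a peak of fold 6.18, and RNU2-63P on chromosome 2, at 124434 bases.

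U5 genes were the only other named small nuclear RNA genes with a KAS peak, 2 of 5. With so few genes the exact 95% interval was 5.27 to 85.3%, and 4.24% of other genes of at most 300 bases had such a peak. RNU5F-1, on chromosome 1 at 44721785 to 44721902, had a peak 697 bases after it with a fold of 3.76, which also lies in the protein-coding gene ARMH1. RNU5A-1, on chromosome 15 at 65296051 to 65296167, had a peak 989 bases after it with a fold of 4.66 that overlapped no gene. Both peaks had a pileup of 8 reads, below the list median of 10. Their neighbours in each pair, RNU5D-1 and RNU5B-1, were 8037 and 7086 bases from a peak, and RNU5E-1 was 8998 bases away.

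None of the 29 U1 genes had a KAS peak within 1 kb, which allows a share of up to 10.3%. All U1 genes but RNVU1-32, RNVU1-33 and RNVU1-34 lie on chromosome 1. There, 9.47% of the 813 other genes of at most 300 bases had such a peak. The standard copies RNU1-1, RNU1-4, RNU1-3 and RNU1-2 were 4368, 12252, 12489 and 15239 bases from the nearest peak. Of the variant U1 genes, RNVU1-24 (1794 bases, fold 6.46), RNVU1-27 (1989 bases, fold 7.50) and RNVU1-17 (2688 bases, fold 4.49) came closest. RNVU1-24 is among the U1 members annotated as pseudogenes. The median distance over all U1 genes was 23.7 kb and the largest was 136 kb, at RNVU1-19.

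The remaining named genes were likewise without a KAS peak within 1 kb. RNU4-1 and RNU4-2, the U4 genes, lie side by side in SIRT4 on chromosome 12 and were 1517 and 2851 bases from the same peak of fold 6.73. Of the U6 genes, RNU6-2 (10122 bases), RNU6-9 (12584), RNU6-8 (25505), RNU6-7 (26623), RNU6-1 (29404) and RNU6V (46177) were all over 10 kb away. RNU6V is annotated as a pseudogene. Of the minor spliceosome genes, RNU11 was 4882 bases away, RNU6ATAC 18119, RNU12 19635 and RNU4ATAC, inside CLASP1, 38435. RNU7-1 was 11971 bases and RN7SK 31909 bases from a peak. With so few genes a count of 0 limits little: 0 of 6 U6 genes allows a share of up to 50.0%.

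Outside the RNU2-1 array, 3 of 63 LOC-numbered genes had a KAS peak within 1 kb (4.76%), near the 4.24% of other short genes. LOC124900915 on chromosome 4 had a peak with a fold of 6.74 at 280 bases, inside KLHL2. LOC124904107 on chromosome 17 had a fold of 5.47 at 250 bases, inside CDK12, which encodes a kinase of RNA polymerase II. LOC124903091 on chromosome 12 had a fold of 4.66 at 476 bases, in the non-coding gene LINC02387. Each of the 3 peaks overlapped the gene that hosts the small RNA gene. The farthest member was LOC124901219 on chromosome 5, 1500 kb from any KAS peak.

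Copies that lie together had a KAS peak more often than single copies. A copy counted as clustered when another gene of its family was within 100 kb, and LOC-numbered genes were treated as a family of their own. RNU2-1 therefore counted as a single copy, because the other genes of its array are LOC-numbered. Of 64 clustered copies 21 had a KAS peak within 1 kb (32.8%, exact 95% interval 21.6 to 45.7), and of 93 single copies 4 did (4.30%, interval 1.18 to 10.6). Of the 21, 15 were in the SNAR arrays, 4 in the RNU2-1 array and 2 in the U5 pairs, so 3 arrays supplied 19. The 15 clustered U1 copies, the RNU4 pair, the RNU6-7 and RNU6-8 pair and the SNAR-G1 and SNAR-G2 pair had 0. The pair LOC124904613 and LOC124904634 and the pair LOC124901191 and LOC124901192 also had 0. Without SNAR, the shares were 15.0% of 40 clustered and 3.37% of 89 single copies. When genes within 100 kb were joined into loci, 5 of 16 loci with several copies and 4 of 90 loci with 1 copy had a peak. A locus counted when any of its copies had a peak, so a locus with several copies could be counted more easily. Copies of an array share sequence and can share peaks, so they are not independent, and the intervals cover counting error only. Outside the 3 arrays 6 of 121 genes had a KAS peak (4.96%), against the 4.24% of other short genes.

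KAS peaks beside SNAR genes held more reads than most KAS peaks but were not higher in fold. The pileup is the number of reads over the summit. It exceeded the list median of 10 in 17 of 18 peaks near SNAR genes, with a median of 17.5 and a range from 9 to 33, compared with 41.2% of all KAS peaks. The fold exceeded the list median of 5.43 in 8 of 18, with a median of 5.15, compared with 49.5% of all peaks. The pileup plus 1, divided by the fold, rises with the background that the caller set against a peak. It is used here to rank peaks by background, not as the background itself. This quotient was above the list median of 1.93 in 18 of 18 peaks near SNAR genes, with a median of 3.65, compared with 42.3% of all peaks, and the 90th percentile of the list was 2.86. Its median was 4.35 over the first SNAR array, 3.27 over the second and 3.17 over the RNU2-1 array. Of the other 10 peaks near members, 5 exceeded the median pileup and 6 the median of the quotient. Raised background moved together with the SNAR peaks, and its part in where peaks were called was not tested.

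**Figure D4:**
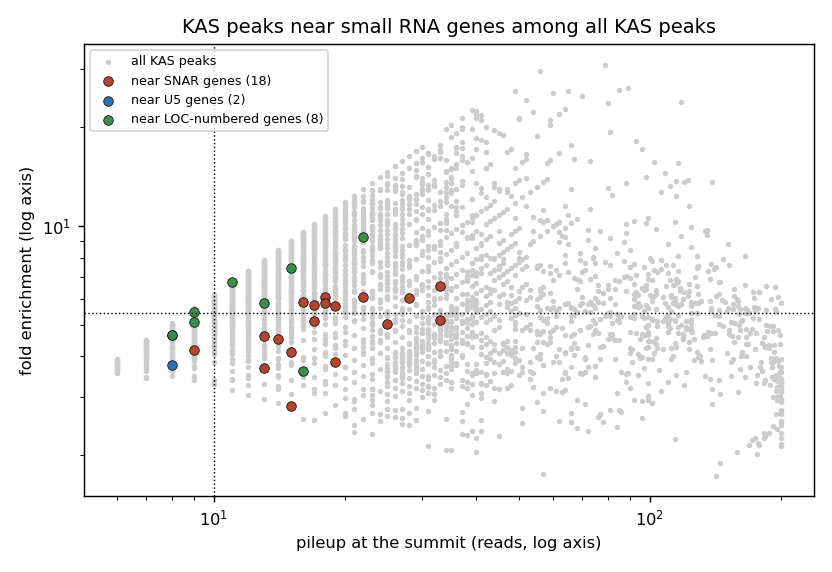
Pileup at the summit (x axis, reads, log axis) against fold enrichment (y axis, log axis) for all KAS peaks (grey) and for those within 1 kb of SNAR (red), U5 (blue) and LOC-numbered genes (green); dotted lines mark the list medians of 10 and 5.43. Peaks near SNAR lie to the right of the median pileup, except that of SNAR-E at 9, and on both sides of the median fold.

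Thrombin pulldown peaks were not found near any of these genes. In each of the 4 pulldown lists 0 of 157 genes had a peak within 1 kb. The count within 100 kb was also 0, but the share of all genes at that distance was not counted. Pulldown peaks near genes were rare in general: 0.0125%, 0.0143%, 0.0267% and 0.0285% of all RefSeq genes had 1 within 1 kb in replicates 1 to 4. A count of 0 among 157 genes within 1 kb is therefore near the background. Within 1 Mb there were 9, 14, 10 and 10 genes in replicates 1 to 4 (10.8 ± 2.22, SD, n = 4), or 5.73%, 8.92%, 6.37% and 6.37% of members. At that distance 2.83%, 2.95%, 4.01% and 3.91% of all RefSeq genes were counted, and 2.49%, 3.06%, 3.83% and 3.72% of other genes of at most 300 bases. U1 genes of chromosome 1 made up 5, 9, 5 and 5 of the members counted, and neighbouring genes can share a pulldown peak.

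The nearest member in every replicate was LOC124905169 on chromosome 22 at 16141767 to 16141872, with a pulldown peak 200, 205, 205 and 120 kb away in replicates 1 to 4. Among U1 genes, RNVU1-17 was 432, 432, 424 and 424 kb from a pulldown peak in replicates 1 to 4. RNVU1-15 was 272 kb away in replicate 2 but 1145, 1137 and 1137 kb in replicates 1, 3 and 4, so its distance rested on 1 list. The SNAR genes of chromosome 19 were about 19.7 Mb or more from any pulldown peak in each list. The median distance over all members was 20.7, 19.1, 16.3 and 16.5 Mb in replicates 1 to 4, against 11.97 kb for the KAS list, which holds many more peaks.

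**Figure D5:**
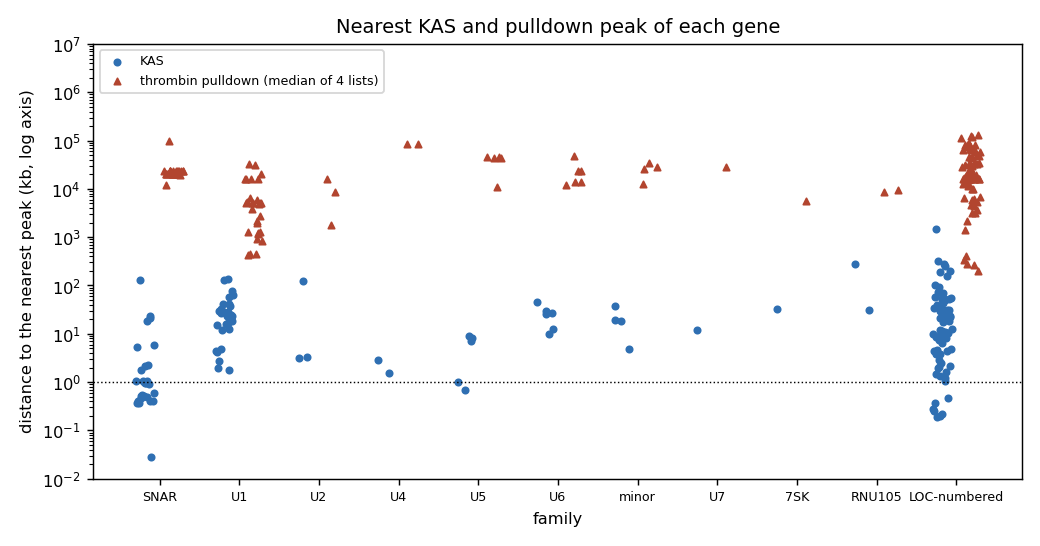
Distance from each gene to the nearest KAS peak (blue circles) and to the nearest pulldown peak (red triangles, median of the 4 lists), in kb on a log axis, by family; the dotted line marks 1 kb. No triangle is below 100 kb, while 25 circles are below 1 kb.

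Genes for the proteins that make, bind or process these RNAs were read from the same lists. Long genes are more likely to hold a peak, and 39.2% of protein-coding genes had a KAS peak in the gene or within 1 kb of it. Of 29 snRNA promoter factors and Integrator subunits 9 did, led by ELL (fold 9.24), an elongation factor of the complex that transcribes small nuclear RNA genes, POU2F1 (8.16), the octamer factor, ZC3H8 (7.30), and ZNF143 (6.74), a factor of snRNA promoters; INTS8, an Integrator subunit, had the same fold as ZNF143. Of 22 genes for subunits and factors of RNA polymerase III 10 did, with POLR3B (6.74), POLR1C (6.74), BRF1 (6.18) and CRCP (5.96) highest.

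Of 41 genes for snRNP proteins and their assembly 12 did (29.3%). The folds were 5.98 in SNRNP70, which encodes a U1 protein, 5.62 in GEMIN6 and in LARP7, the protein that binds 7SK, and 5.44 in SNRPD2, an Sm protein gene. A KAS peak within 1 kb of a gene end was found in 3 of 29, 3 of 22 and 0 of 41 genes of these lists, against 6.79% of protein-coding genes. In each pulldown list, 0 genes of these 3 groups had a peak in the gene or within 1 kb, where 0.0105%, 0.0158%, 0.0369% and 0.0369% of protein-coding genes did in replicates 1 to 4.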

How the data were processed

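Thrombin pulldown and KAS libraries of HL-60 cells were analysed from the peak list deposited for each library. The submitters' processing notes list MACS2 2.2.7.1, BWA, bedtools 2.30.0, Picard 2.27.4 and SAMtools 1.6 with GRCh38.p13 as genome, but no roles or settings. The deposited pileup signal is the read height at a summit and is not normalized between libraries. For each peak the authors also deposited −log10 of p and of q; the lowest −log10 q was 2.00 to 2.01 across lists. Fold enrichment is the authors' ratio over the caller's background, used only to describe and rank peaks within a list. Whether inputs served as control, and how reads matching several places were treated, are not given in the sources used here. Peak numbers began at 1951 in the KAS list and at 195 to 259 in the pulldown lists, and any before these were not analysed here. Depth is unknown because the lists give no library totals.

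A gene was near a peak when at least 1 base of the peak lay in the gene or within 1000 bases of it. Genes listed after the point where coordinates restart within a chromosome of the RefSeq table were taken to be on scaffolds and left out, also from the background. The members and gene lists were chosen with earlier results of these data known. Named were all members with a peak, the standard small nuclear RNA genes, members just outside 1 kb and up to 4 genes per list by fold; other members were named after their values were seen. GEMIN8, on chromosome X, was not counted. A list of partners and neighbours of SNAR genes is not reported here. No test was run, since the rule uses these peaks. Shares carry exact (Clopper-Pearson) 95% intervals, the limit for a count of 0 is 3 divided by the number of genes, and both cover counting error only. Python 3.11.15, pandas 2.3.3, NumPy 2.4.6, SciPy 1.17.1 and Biopython 1.88 were used. The overlap step was tested on simulated data, where 67 of 67 peaks planted within 1 kb of 106 member genes were recovered and 0 others were called, and bedtools 2.31.1 gave the same 25 genes.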

Additional observations from a re-analysis of the deposited data

How the results depend on the processing

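The number of genes with a KAS peak depended on the distance: 0 when the peak had to touch the gene, 15 within 500 bases, 25 within 1 kb, 29 within 1.1 kb, 38 within 2 kb and 60 within 5 kb, where 14.8% of other short genes were counted too. With the 50% of KAS peaks of higher fold 13 genes were left, and joined into loci there were 9. Asking for the peak centre or for 50% of the peak within 1 kb gave 20, members named by symbol gave 18 of 81, members of chromosomes X and Y added none, and the genes had 28 distinct peaks. For clustered and single copies, the shares were 60.9% and 22.6% within 5 kb, 0% and 0% on the gene itself, and 17.2% and 2.15% with the higher-fold peaks; without SNAR genes the clustered share was 15.0%. Setting the cluster distance to 20 kb or 500 kb, or counting any member as a neighbour, left the clustered share between 27.3% and 40.0% and the single share between 4.44% and 5.00%. Without its lone last copy the RNU2-1 array held 17.5 KAS peaks per 100 kb in place of 10.3. That value, the distances of 1.1 kb and 2 kb, the loci and the count without SNAR were added after seeing the data. The pulldown count was 0 under every alternative tried, with 0 to 0 when each replicate was left out and 0 for merged regions held by at least 2 or at least 3 lists. No paired analysis was possible because the input libraries that share the pulldown replicate numbers were not analysed here, and the single KAS library has no partner. Depth is unknown, so genes without a peak cannot be called free of single-stranded DNA.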
